A study of Mus musculus with 134 samples.

Results

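Vessel genes were followed in mammary tumors of a mouse backcross. The 34 genes comprised 27 that mark the endothelium of blood vessels, 4 that mark the endothelium of lymph vessels and 3 that mark pericytes, the contractile cells wrapped around small vessels. They were chosen by name, as genes known from these cells, though with earlier results of these data known. All 34 were found among the 19938 genes measured, each by 1 probe set carrying a single gene symbol. The study asked how far inherited background shapes the expression profile of tumors that share an oncogene. Every animal carried the MMTV-PyMT transgene, in which the promoter of the mouse mammary tumor virus drives the polyoma middle T antigen, chiefly in mammary epithelium. PyMT-positive F1 males, from PyMT males and MOLF/EiJ females, were crossed to FVB/NJ females, and the 134 tumors came from PyMT-positive N2 females, so that each animal held its own set of MOLF segments on an otherwise FVB background. The animals were untreated and were kept until tumor burden approached the humane limit, and the labels give 1 tumor and 1 array per animal. Ages, genotypes, subtypes and metastases were not analysed here. All 134 tumors therefore formed 1 group, and every comparison ran across tumors. In RNA of whole tumors, fewer cells of a type and less RNA per cell cannot be told apart. The number of arrays limits how precisely a mean or a correlation across tumors is known.

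Blood vessels are lined by endothelial cells held together by VE-cadherin (Cdh5) and PECAM1. VEGF-A, a ligand that hypoxic cells secrete, acts on the endothelial receptors VEGFR2 (Kdr) and VEGFR1 (Flt1) and starts sprouting. The receptor TIE2 (Tek) keeps vessels stable when bound by angiopoietin-1, while angiopoietin-2 (Angpt2), released by endothelial cells of growing vessels, mostly opposes it. Tip cells at the front of a sprout are known for Apln, Esm1 and Angpt2, and pericytes, marked by Rgs5, Cspg4 (NG2) and Mcam, coat the finished vessel. Lymph vessels depend on the transcription factor PROX1 and on VEGFR3 (Flt4), and carry LYVE1 and podoplanin (Pdpn).

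Values are log2 signals of the Affymetrix Mouse Gene 1.0 ST array, scaled between arrays by the authors with RMA. A gene was taken as detected where its mean exceeded 5.71, the 95th percentile of the means of 1194 receptor genes of the olfactory and vomeronasal epithelium, which tumors are not known to use. Means of 30 of the 34 genes were above this detection floor. The other 4 were the transcription factor Sox17 (5.46 ± 0.21, mean ± SD, n = 134 tumors), Esm1 (5.38 ± 0.24), Prox1 (5.29 ± 0.23) and Flt4 (5.64 ± 0.17), which exceeded it in 6, 14, 7 and 43 tumors. Defining markers of blood endothelium and pericytes were thus present, with Cdh5, Pecam1, Rgs5 and Cspg4 above the floor in all 134 tumors. The master regulator of lymphatic endothelium was not detected in most of them.

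Tumors 73 and 94, as numbered in the labels, stood apart in composition, and many results are also given without 1 or both of them. In tumor 73 the score of 20 proliferation genes, the mean of their z-scores across tumors, was -6.33, and that of 10 luminal epithelial genes was -5.09, each the lowest of 134. All 9 adipocyte genes and all 11 skeletal muscle genes were among their 2 highest values there, for scores of 4.67 and 3.74. The adipokine Adipoq had 11.24 in tumor 73 and 10.64 in tumor 94, against a median of 6.04, and the epithelial adhesion molecule Epcam 9.45 and 10.40 against 11.26. Tumor 94 had the next lowest proliferation and luminal scores, -2.74 and -2.01, an adipocyte score of 4.44 and a skeletal muscle score of -0.951. It stood out less than tumor 73. Among their 2 highest values there were 4 of 9 adipocyte genes. Among their 2 lowest were 14 of 20 proliferation genes and 2 of 10 luminal genes. The highest adipocyte score of the other 132 tumors was 3.92. Tumor 82 had the highest T cell and B cell scores, 5.89 and 6.19. The labels number tumors in 2 ascending runs of animal identifiers, 1 to 106 and 107 to 134, whose meaning is not given in the sources used here, and each run was also examined alone, as the first run (106 tumors) and the second run (28 tumors).

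Vessel genes varied more between tumors than most genes. Their median SD was 0.312 over all 34, including the 4 under the floor, against 0.217 over the 13763 genes above the floor. Of the 30 members above it, 29 exceeded that value. Without tumor 73 the median SD of the members was 0.291, with the value over all genes in that setting not given here. The median member differed 1.52-fold between the 10th and the 90th percentile of tumors. Tumor 73 held the highest value of 19 members and tumor 94 that of 5, whereas tumor 73 held the highest value of 12.3% of all genes above the floor. In tumor 73 the scores of blood vessel and pericyte genes were 4.49 and 4.53, the highest of all, and that of lymphatic genes, 0.426, ranked 25th. Single genes differed from their class. The lymphatic gene Flt4 lay 2.65 SD above the mean of the other tumors. The blood vessel genes Angpt2, Apln and Esm1 lay at 0.158, -1.10 and 0.113 SD. In tumor 94 the blood vessel and pericyte scores ranked 2nd, at 3.25 and 3.71, and the lymphatic score of 2.51 ranked 1st. Tumor 61 was high as well. It came next after tumor 73, and above tumor 94, for Tie1 (8.34), Ptprb (8.80), Esam (8.42), Eng (9.39), Vwf (7.95), Nos3 (7.68) and Cspg4 (8.04). Tumor 61 was kept where tumors 73 and 94 were left out, and how far those values rest on it was not tested.

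**Figure D1:**
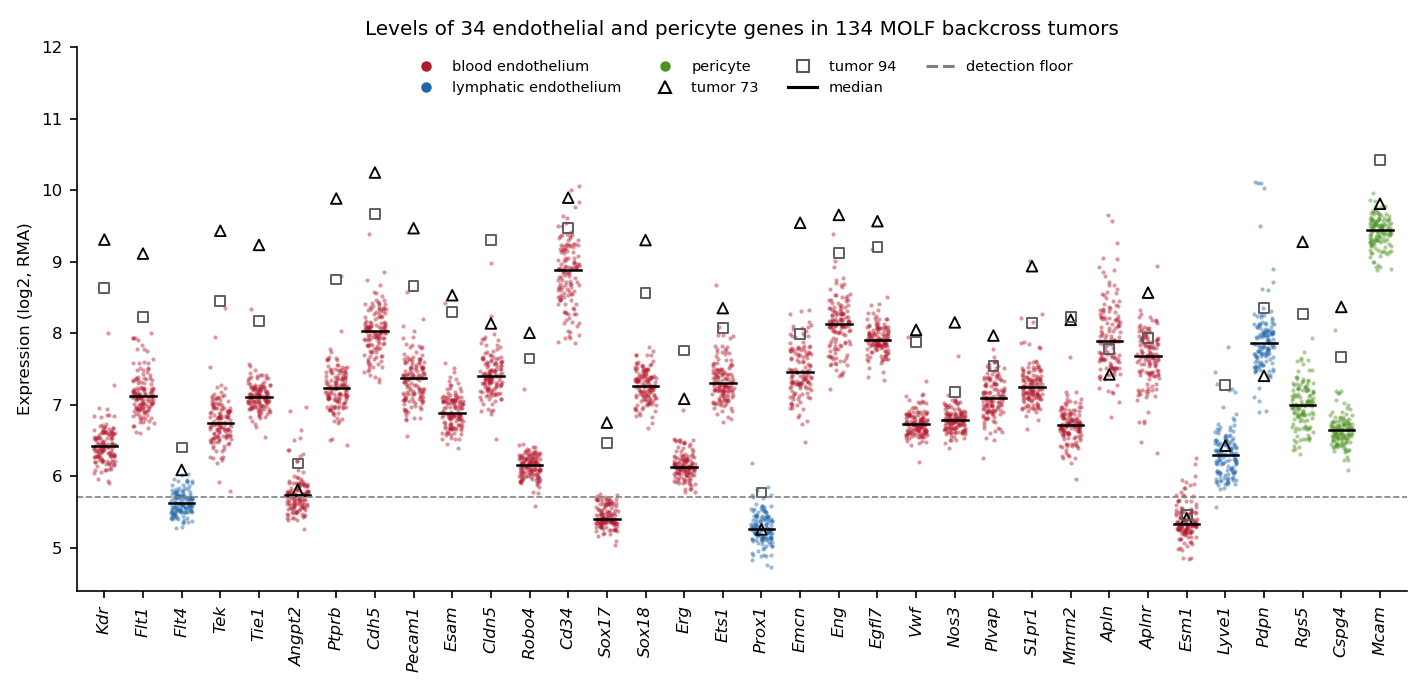
Expression (log2, RMA) of each of the 34 genes in every tumor, 1 point per tumor, with the median as a bar, the detection floor of 5.71 as a dashed line, and tumors 73 (triangles) and 94 (squares) marked. Tumors 73 and 94 lie above the cloud for most blood vessel and pericyte genes and inside it for Angpt2, Apln and Esm1; levels of different genes come from different probes and are not comparable with each other.

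Among junction and adhesion genes, VE-cadherin (Cdh5) had a lowest, median and highest value of 7.31, 8.03 and 10.24. Pecam1, the adhesion molecule of endothelial contacts, had 6.56, 7.37 and 9.47. Both were lowest in tumor 56 and highest in tumor 73. Esam, another endothelial adhesion molecule, ran through 6.39, 6.89 and 8.53, and Robo4, a receptor that dampens vessel leak, through 5.59, 6.16 and 8.01. Cldn5, the tight junction claudin of endothelium, was highest in tumor 94 and not in tumor 73, with 6.52, 7.39 and 9.30. Cd34, a sialomucin of endothelium that blood progenitors and stromal cells also carry, had the largest SD of the blood vessel genes after Apln (0.46 and 0.49), with values of 7.87, 8.88 and 10.05, and was highest in tumor 107.

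The VEGF receptors Kdr, Flt1 and Flt4 had 5.90, 6.42 and 9.31, 6.60, 7.13 and 9.11 and 5.28, 5.62 and 6.40. Kdr and Flt1 were highest in tumor 73 and next in tumor 94, and Flt4 the reverse. In the Tie system, Tek ran through 5.79, 6.74 and 9.43, its partner receptor Tie1 through 6.55, 7.11 and 9.23, and Ptprb, the phosphatase VE-PTP that restrains TIE2, through 6.44, 7.23 and 9.88. The TIE2 ligand Angpt2 behaved differently. Its values were 5.26, 5.74 and 6.96, above the floor in 73 tumors, and the highest lay in tumor 25, where Tek had its lowest value of 5.79. Tumor 73 had 5.81, close to the median.

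Among sprouting genes, Apln, the ligand apelin, ran through 6.83, 7.89 and 9.66 and was highest in tumor 116, while its receptor Aplnr ran through 6.32, 7.68 and 8.93 and was highest in tumor 61. Neither gene had its maximum in tumor 73 or 94. Esm1 (endocan), a secreted proteoglycan, had 4.84, 5.33 and 6.26, highest in tumor 28. The pericyte gene Rgs5, a regulator of G protein signaling, ran through 6.31, 7.00 and 9.28, the proteoglycan Cspg4 through 6.08, 6.64 and 8.37, and Mcam (CD146), which melanoma and epithelial tumor cells can also carry, through 8.89, 9.44 and 10.42. Among lymphatic genes, the hyaluronan receptor Lyve1 had 5.58, 6.30 and 7.81, highest in tumor 107, and Pdpn, which fibroblasts and myoepithelium also express, 6.90, 7.86 and 10.11. Pdpn was highest in tumors 100 and 4, and a handful of tumors lay apart at its upper end in the plot of levels. The remaining members, the transcription factors Sox18, Erg and Ets1 and the surface and secreted proteins Emcn, Eng, Egfl7, Vwf, Nos3, Plvap, S1pr1 and Mmrn2, had SDs between 0.20 (Nos3) and 0.39 (Emcn) on the log2 scale. Of these 11, Ets1 and S1pr1 were highest in tumor 82 and Erg and Mmrn2 in tumor 94, the others in tumor 73.

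The members moved together across tumors. Over their 561 pairs the median Pearson r was 0.442, from -0.424 (Prox1 with Apln) to 0.886 (Pecam1 with Cdh5), and 42.4% of pairs exceeded 0.5. Over all pairs of genes above the floor the median was 0.000606 and 1.67% exceeded 0.5. Without tumor 73 the members' median was 0.383 with 33.0% over 0.5, beside 1.55% of all pairs, and without tumors 73 and 94 it was 0.328. The first run alone gave 0.462 and the second 0.402. After fibroblast, adipocyte and macrophage scores had been regressed out, it was 0.257. The 34 pairs of members that share a chromosome had a median of 0.458, close to the 0.442 of the other pairs.

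This coherence was highest within blood vessel genes and between them and pericyte genes, and lower for lymphatic genes. The median r was 0.531 over the 351 pairs of blood vessel genes and 0.467 over the 81 pairs of a blood vessel with a pericyte gene. It was 0.210 over the 108 pairs of a blood vessel with a lymphatic gene and 0.170 among the 4 lymphatic genes themselves. Without tumor 73 these medians were 0.454, 0.400, 0.230 and 0.171. On ranks the contrast was smaller, with a median rho of 0.351, 0.303, 0.209 and 0.121 over all tumors. Among the pericyte genes themselves the median rho was 0.166. These medians are descriptions over tumors that all pairs share, and their differences were not tested. By role, the junction and adhesion genes were the most coherent, with a median of 0.724 over 15 pairs, followed by the surface and secreted proteins with 0.556 over 28 pairs and the VEGF receptors with 0.537 over 3 pairs. The transcription factors had 0.327 over 10 pairs. Angpt2, Esm1 and Apln stood outside the block, with median correlations to the other members of 0.0271, 0.0317 and 0.0342, but correlated with each other at 0.579 (Angpt2 with Esm1), 0.366 (Angpt2 with Apln) and 0.389 (Esm1 with Apln). These 3 genes were singled out after their values had been seen. Within runs their median was 0.405 in each. Their distance from the block held for levels as measured. With fibroblast, adipocyte and macrophage scores as covariates, the r with Cdh5 was 0.522 for Angpt2, 0.549 for Esm1 and 0.464 for Apln.

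**Figure D2:**
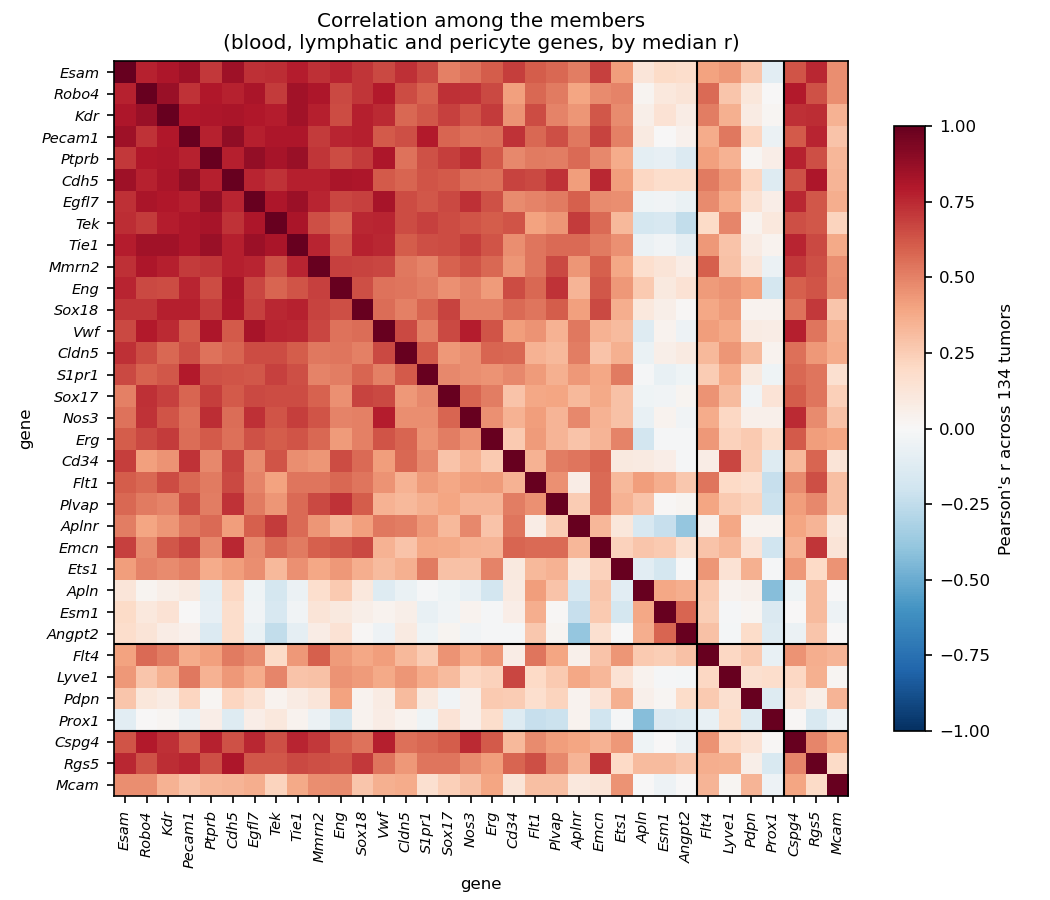
Pearson's r across 134 tumors between every pair of the 34 genes (colour scale from -1 to 1), ordered as blood vessel, lymphatic and pericyte genes and, within each, by median r. A dense red block of blood vessel genes extends to the columns of the pericyte genes Rgs5 and Cspg4, while Apln, Esm1 and Angpt2 are pale against the block and Prox1 is pale or blue throughout.

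With the level of Cdh5 taken as a measure of endothelial content, 30 of the 33 other members were called positive at an adjusted p under 0.05 (limma, Benjamini-Hochberg over 19937 genes), against 15.8% of all genes called positive. None of the 33 was called negative, against 29.0% of all genes. Pecam1 led with r = 0.886 (rho = 0.836, permutation p = 1e-05 for both, the smallest that 100000 permutations can give, adjusted p = 4.08e-42), and r was 0.830 without tumors 73 and 94, the 2 farthest from the median of Cdh5. Next came Esam with r = 0.846 (adjusted p = 8.87e-35), Eng, a co-receptor for TGF-beta ligands, with 0.818 (1.11e-30), and Kdr with 0.814 (3.57e-30). Without those 2 tumors these were 0.769, 0.783 and 0.694. Plvap, the diaphragm protein of fenestrated endothelium, changed least among the strong partners, from 0.726 to 0.718, with 0.752 in the first run and 0.743 in the second. The median r of the 33 members with Cdh5 was 0.636, and 0.493 without tumors 73 and 94, and 24 members had r over 0.5 with all tumors and 16 without those 2.

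Some members followed Cdh5 mainly through the extreme tumors. The von Willebrand factor gene Vwf had r = 0.616 (permutation p = 1e-05) but rho = 0.246 (permutation p = 0.00452) and r = 0.400 without tumors 73 and 94. Nos3, the endothelial nitric oxide synthase, went from 0.561 to 0.349 (rho = 0.216), Sox17 from 0.616 to 0.349, and Erg from 0.554 to 0.320. All 4 were still called without those 2 tumors. Mcam fell from 0.338 (adjusted p = 0.000419) to 0.184 and was no longer called (limma adjusted p = 0.081). The 3 members not called with all tumors were Prox1 (r = -0.129), Angpt2 (0.173) and Esm1 (0.174). Angpt2 and Esm1 were called under other settings. With the 3 scores of other cell types as covariates, r was 0.522 for Angpt2 (limma adjusted p = 2.36e-08) and 0.549 for Esm1 (2.44e-09). On ranks Angpt2 had 0.212 (adjusted p = 0.033), and after a second quantile normalization Esm1 had 0.219 (0.0332). Without tumors 73 and 94, Prox1 was called negative, with r = -0.239 (limma adjusted p = 0.0211), for 29 positive members and 1 negative.

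**Figure D3:**
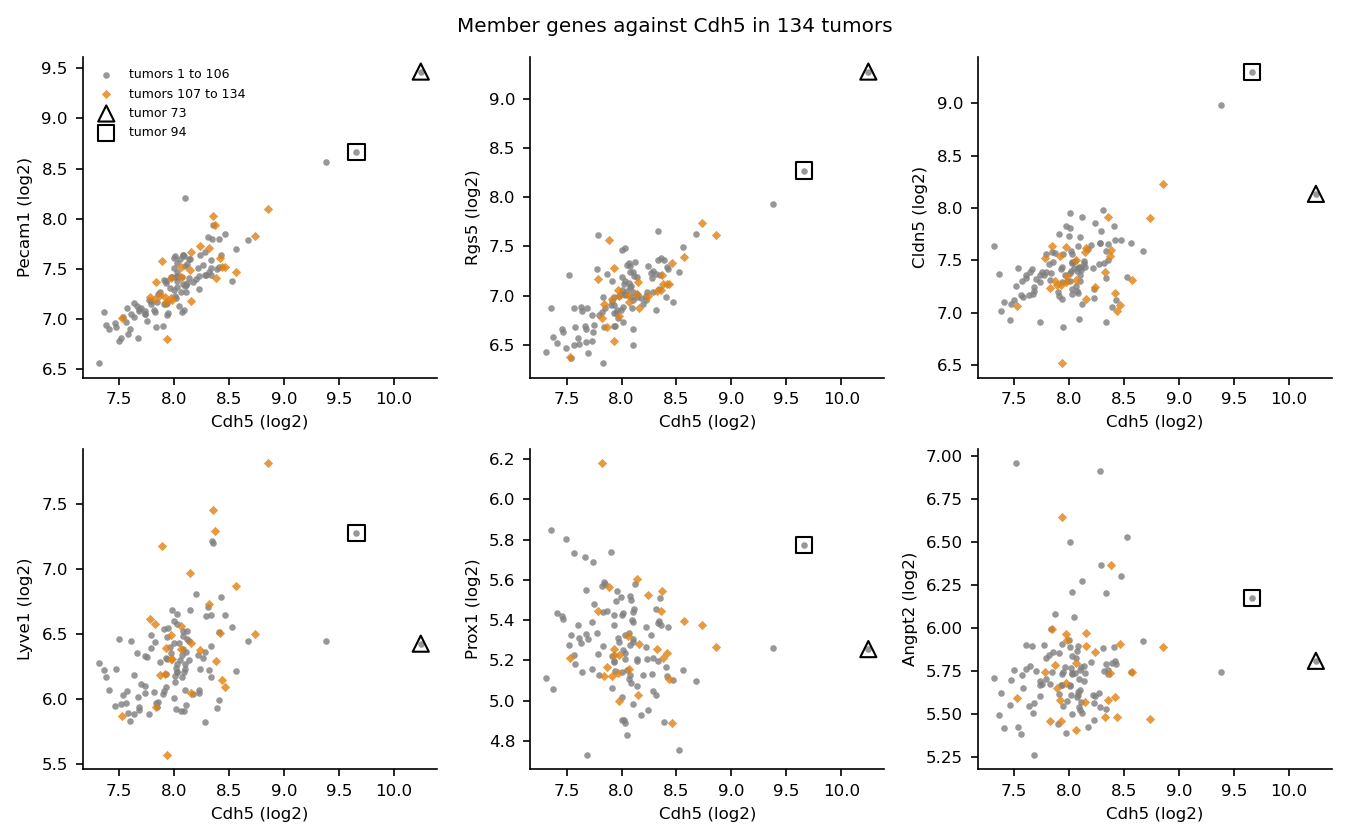
Log2 levels of 6 members against Cdh5, 1 point per tumor (circles for tumors 1 to 106, diamonds for tumors 107 to 134), with tumors 73 and 94 marked. Pecam1 and Rgs5 rise with Cdh5 in both runs, Cldn5 less so, Lyve1 only loosely, and Prox1 and Angpt2 show little or no rise.

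Other genes of blood endothelium, from a list of 33 measured genes, were called positive with Cdh5 in 23 cases and negative in 0, against 15.8% and 29.0% of all genes. The scavenger-like receptor Cd93 had r = 0.787, the adrenomedullin co-receptor Ramp2 0.743, the Notch ligand Dll4 0.647 and the ETS factor Fli1 0.672. The 10 genes outside the 34 most like Cdh5 ran from the caveolar coat gene Cavin1 (0.865), Cd300lg (0.863), the adhesion receptor Adgrl4 (0.858) and the VEGF and semaphorin co-receptor Nrp1 (0.830) to the homeobox gene Meox2 (0.805). Between them came the basement membrane gene Nid1, the caveolin Cav1, Prex2, the collagen-binding integrin Itga1 and the transcription factor Ebf1. Adipocytes and other stromal cells also express Cavin1, Cav1 and Ebf1.

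The endothelial transcription factors ERG, ETS1 and FLI1 bind ETS motifs, whose core is GGAA. Promoter windows of 300 bases (250 before and 50 after the start) were given by RefSeq for 19 of the 34 members on build GRCm38.p6, 1 window a gene, the first entry of the table. The letters AGGAAG, on either strand, occurred in 8 of the 19 (42.1%), beside 35.1% of all 27025 windows, and the longer CCGGAAG, which contains no AGGAAG, in 0 of the 19 beside 9.12%. Shown here are 4 windows with several matches, of Flt1 (chr5:147725962-147726261, minus strand) and Emcn (chr3:137340828-137341127, plus strand), which rose both with Cdh5 and with the hypoxia score described further on, and of Tie1 (chr4:118489800-118490099, minus strand) and Egfl7 (chr2:26580833-26581132, plus strand), which rose with Cdh5 and did not rise with that score. The call of Emcn with that score was lost in some settings. Capitals mark AGGAAG or its reverse complement CTTCCT. A match is a string of letters and was not tested as a binding site.
Flt1: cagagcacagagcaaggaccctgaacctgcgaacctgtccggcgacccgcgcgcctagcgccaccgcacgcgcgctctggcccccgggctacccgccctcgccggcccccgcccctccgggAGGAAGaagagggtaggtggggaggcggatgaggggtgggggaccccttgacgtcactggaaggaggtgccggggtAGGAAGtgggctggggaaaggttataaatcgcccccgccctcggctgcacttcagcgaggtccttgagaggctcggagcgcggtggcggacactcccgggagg
Emcn: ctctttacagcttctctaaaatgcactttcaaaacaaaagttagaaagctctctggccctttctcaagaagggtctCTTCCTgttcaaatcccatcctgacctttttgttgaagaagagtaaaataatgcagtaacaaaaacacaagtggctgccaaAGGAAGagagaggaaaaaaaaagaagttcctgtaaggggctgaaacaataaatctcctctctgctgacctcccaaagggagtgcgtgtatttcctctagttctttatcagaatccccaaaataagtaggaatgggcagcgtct
Tie1: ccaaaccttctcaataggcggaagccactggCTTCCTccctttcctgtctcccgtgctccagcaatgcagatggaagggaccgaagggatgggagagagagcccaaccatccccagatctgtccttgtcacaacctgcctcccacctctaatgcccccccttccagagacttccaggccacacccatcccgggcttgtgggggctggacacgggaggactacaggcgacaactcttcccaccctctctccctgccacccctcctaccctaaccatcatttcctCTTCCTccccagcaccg
Egfl7: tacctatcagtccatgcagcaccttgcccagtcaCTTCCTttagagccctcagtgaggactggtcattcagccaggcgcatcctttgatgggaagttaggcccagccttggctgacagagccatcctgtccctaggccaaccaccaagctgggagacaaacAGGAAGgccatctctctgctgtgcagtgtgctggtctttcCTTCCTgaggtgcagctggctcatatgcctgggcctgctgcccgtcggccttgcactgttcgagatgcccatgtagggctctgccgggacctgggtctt
The GC-box letters CCGCCC occurred in 10 of the 19 windows (52.6%, beside 35.9% of all windows), including those of Kdr, Flt1, Flt4 and Prox1, and the hypoxia response letters ACGTG in 1, that of Pdpn (5.26%, beside 19.7%).

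The transcription factors themselves differed in how closely they followed the vessels. Sox18 had r = 0.807 with Cdh5 and 0.683 without tumors 73 and 94, and correlated with Sox17, its close relative and partly redundant in mice, at 0.679 with all tumors and 0.382 without them. Ets1, which lymphocytes also express, had only 0.418 with Cdh5. Its level followed the B cell score at r = 0.419 (permutation p = 5e-05, adjusted p = 0.000133 over 8 relations) but at rho = 0.139 (permutation p = 0.110, adjusted p = 0.176), and at r = 0.229 without the 2 tumors farthest in that score, so that it rested largely on those. S1pr1, the sphingosine receptor of endothelium and lymphocytes, followed the T cell score at r = 0.536 (rho = 0.264, permutation p = 1e-05 and 0.00190) and the B cell score at r = 0.564, with 0.318 and 0.349 without the 2 farthest tumors. The part of lymphocytes in these levels was not tested.

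The pericyte gene Rgs5 rose and fell with the endothelium, and its r with Cdh5 exceeded that of most blood vessel genes. With the level of Rgs5, 29 of the 33 other members were called positive and 0 negative, against 14.6% and 20.2% of all genes. Its strongest partner was Cdh5 at r = 0.807 (rho = 0.682, permutation p = 1e-05 for both, limma adjusted p = 1.94e-28), with 0.706 without the 2 farthest tumors and 0.823 and 0.696 in the 2 runs. Pecam1 (0.761), Esam (0.756) and Kdr (0.742) came next. In the second run alone, limma called 0 members after adjustment and 13 at an unadjusted p under 0.05.

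The 3 pericyte genes had a median r of 0.396 with each other, beside 0.467 with blood vessel genes, a difference that was not tested. Cspg4 correlated with Rgs5 at 0.485 (limma adjusted p = 6.8e-08), but at 0.197 without tumors 73 and 94, where it was no longer called (adjusted p = 0.082). Mcam was not called with Rgs5 (r = 0.191). Cspg4 had its highest values with the endothelial genes Robo4 (0.795), Vwf (0.778) and Ptprb (0.772). Among 16 other measured pericyte and smooth muscle genes, 9 were called positive with Rgs5 and 1 negative, against 14.6% and 20.2% of all genes. The sulfonylurea receptor subunit Abcc9, expressed in pericytes, had r = 0.739, Rgs4 0.572 and the PDGF receptor Pdgfrb, on which pericyte recruitment depends, 0.490. The aminopeptidase Anpep, also made by epithelial and myeloid cells, was the negative one at -0.426. Notch3, a mural cell receptor that epithelium can express as well, had -0.0855 (adjusted p = 0.452). The 5 genes outside the 34 most like Rgs5 were Itga1, Adgrl4, Prex2, Adgrf5 and Cd93, and Adgrl4, Prex2 and Itga1 were also among the 10 most like Cdh5.

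The lymphatic genes did not form a group in these values. For Prox1 and Flt4, whose means lay under the detection floor, background signal limits what a low correlation can show. Prox1 and Lyve1 correlated at 0.176 (rho = 0.117, permutation p = 0.0421 and 0.18, limma adjusted p = 0.244). With the level of Lyve1, 21 of the 33 other members were called positive and 0 negative, against 5.24% and 1.95% of all genes. These were 20 blood vessel genes and the pericyte gene Rgs5, with 0 of the 3 other lymphatic genes (Prox1, Flt4 and Pdpn, r from 0.163 to 0.208). Cd34 (0.668), Pecam1 (0.531) and Tek (0.486) led them. With fibroblast, adipocyte and macrophage scores as covariates, only 1 member was called. The 5 genes outside the 34 most like Lyve1 were the folate receptor Folr2 (0.784), the mannose receptor Mrc1 (0.777), the lectins Cd209d (0.763) and Cd209f (0.747) and the matrix protein dermatopontin Dpt (0.747). Folr2, Mrc1 and the Cd209 genes are known from resident tissue macrophages, which in mice can carry LYVE1 as well, and Dpt is a fibroblast gene. The relation with Mrc1 had rho = 0.760 and r = 0.762 without the 2 farthest tumors, and r = 0.754 and 0.826 in the 2 runs. Lyve1 also followed the score of 12 macrophage genes, which include Mrc1, at r = 0.310 (limma adjusted p = 0.00232). Which cells the Lyve1 signal came from was not tested.

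Among 8 other lymphatic genes, 3 were called positive with Lyve1, namely Mmrn1 (0.439), Nrp2 (0.348) and Sned1 (0.326). The lymphangiogenic ligand Vegfd correlated with Lyve1 at 0.631 (limma adjusted p = 1.1e-13), and Vegfc at 0.139 (0.373). With the level of Prox1, which lay under the floor in most tumors, 0 of 33 members were called positive and 1 negative, against 2.10% and 1.96% of all genes. It was Apln, at r = -0.424 (rho = -0.379, permutation p = 1e-05 and 2e-05, limma adjusted p = 0.000171). Without the 2 tumors farthest in Prox1 it was -0.410. The genes outside the 34 most like Prox1 were Dpyd (0.496), Crybg3, Six4, Aox4 and Grk3 (0.437), none of them a lymphatic marker. Flt4 followed blood vessel genes, with 0.596 for Mmrn2 and 0.537 for Flt1, and had -0.0711 with Prox1. VEGFR3 is also made by blood endothelium of growing vessels. Pdpn had r = 0.211 with Cdh5 (limma adjusted p = 0.0329).

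Angpt2, Esm1 and Apln, genes of sprouting vessels, rose with genes of hypoxia, while the receptor Aplnr fell. A score of 16 hypoxia-induced genes outside the 34, such as the carbonic anhydrase Car9 and the glucose transporter Slc2a1, was highest in tumor 25 (3.01). With it, 7 of 34 members were called positive and 7 negative, against 12.9% and 12.7% of all genes. The count of members called was thus not far above that of genes in general, and the text that follows describes single genes. Angpt2 had r = 0.708 (rho = 0.401, permutation p = 1e-05 for both, limma adjusted p = 6.93e-19), Esm1 0.599 (rho = 0.502, adjusted p = 8.19e-12) and Apln 0.565 (rho = 0.538, adjusted p = 2.36e-10). Without the 2 tumors of most extreme score these were 0.629, 0.579 and 0.579. In the first run they were 0.729, 0.623 and 0.553, and in the second 0.631, 0.462 and 0.615. These are the genes that stood outside the block of endothelial genes, and most Esm1 values lay under the floor.

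Flt1 was the VEGF receptor that rose most with hypoxia, at r = 0.445 (rho = 0.565, adjusted p = 4.64e-06, limma), while Kdr had -0.0170 (rho = 0.0874, adjusted p = 0.895). Flt4 (0.231), Emcn (0.227) and Rgs5 (0.219) were called positive with smaller values. These 3 calls were not stable. Without tumors 109 to 120 they were lost (limma adjusted p = 0.0780, 0.0533 and 0.0767). Emcn was also lost after a second quantile normalization (0.102), Flt4 on ranks (0.0681), and Flt4 and Rgs5 in the first run alone (0.0836 and 0.0727). On the negative side Aplnr had r = -0.502 (rho = -0.313, permutation p = 1e-05 and 0.00027, limma adjusted p = 8.06e-08) and Tek -0.352 (rho = -0.332, permutation p = 0.00049 and 0.00013, limma adjusted p = 0.000564), with -0.418 and -0.279 without the 2 farthest tumors. Prox1 (-0.290), Ptprb (-0.273), Egfl7 (-0.249), Sox17 (-0.233) and Vwf (-0.229) followed. Cdh5 and Pecam1 themselves had 0.0950 and -0.0296, neither called. The smaller negative values were not stable either. Without the 2 farthest tumors Ptprb (-0.187, limma adjusted p = 0.0799), Egfl7 (-0.172, 0.110) and Vwf (-0.208, 0.0518) were not called, and after a second quantile normalization these 3 and Sox17 were not (adjusted p = 0.050, 0.0861, 0.384 and 0.274).

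The calls with hypoxia changed when other measures were held equal. With Cdh5 as a second covariate, 7 of 33 members were called positive and 14 negative, against 13.8% and 14.0% of all genes. Tek then had a partial r of -0.608 (adjusted p = 2.64e-12, limma), Aplnr -0.599 (6.43e-12), Ptprb -0.559 (4.7e-10) and Egfl7 -0.495 (1.6e-07), and Flt1 0.512 on the positive side (3.38e-08). On ranks this fit called 4 positive and 8 negative, where 6 and 8 were called without Cdh5, and with the 3 scores of other cell types added it called 7 and 5. With fibroblast, adipocyte and macrophage scores as covariates in place of Cdh5, 18 members were positive and 2 negative, and Pecam1 (0.470), Cd34 (0.357), Kdr (0.352), Sox18 (0.271) and Robo4 (0.266) turned positive, so that the direction of these 5 genes depended on which other cells were accounted for. The share of all genes called in that setting is not given here, so the counts are not read as particular to the members. Cdh5 itself had 0.577 with those covariates (limma adjusted p = 1.11e-10). Tek had -0.115 and was no longer called (adjusted p = 0.279), Ptprb, Egfl7, Sox17 and Vwf had 0.00485, 0.00342, -0.0533 and -0.00889, and Aplnr (-0.362) and Prox1 (-0.308) were the 2 negative members. Angpt2 (0.681), Apln (0.574), Esm1 (0.548) and Flt1 (0.638) stayed positive in that setting.

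**Figure D4:**
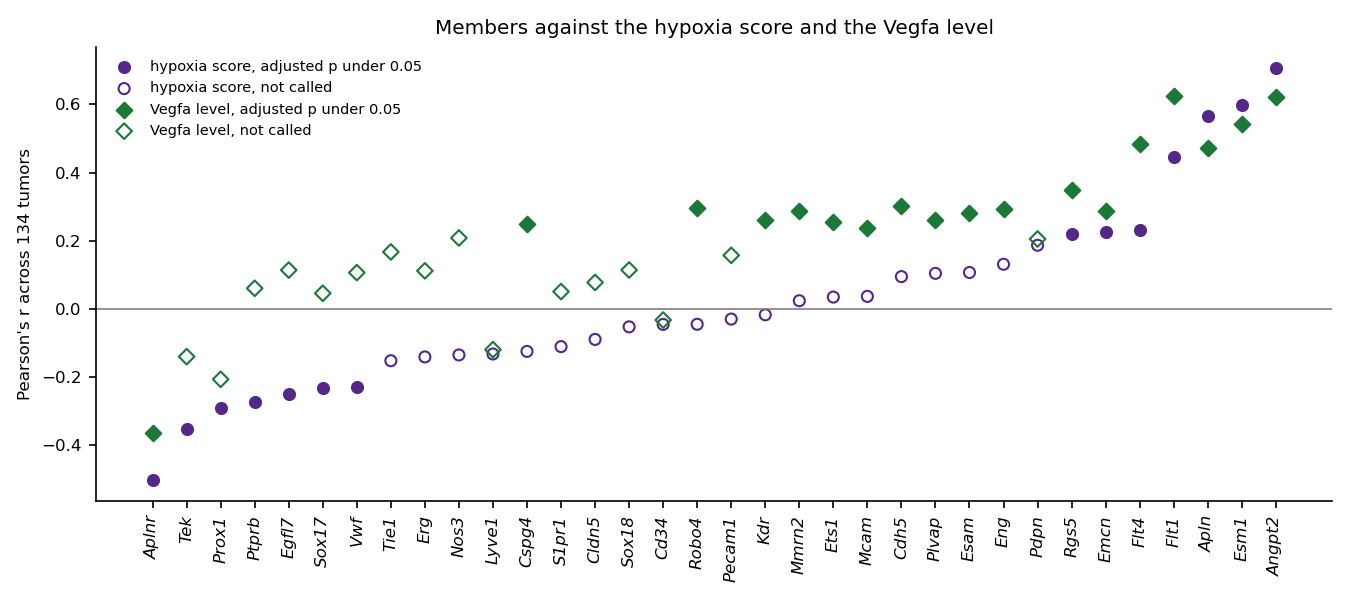
Pearson's r across 134 tumors of each of the 34 genes with the hypoxia score (circles) and with the level of Vegfa (diamonds), ordered by the former, with filled symbols for a limma adjusted p under 0.05. Both measures put Aplnr lowest and Flt1, Apln, Esm1 and Angpt2 among the highest.

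Tumors of the highest hypoxia scores are described singly here. They are among the points behind the r values above and are no separate evidence. In tumor 25, of highest hypoxia score, Angpt2 had its highest value of 134 tumors (6.96), Tek its lowest (5.79) and Aplnr its 2nd lowest (6.47), with Cdh5 8th from the bottom (7.52). Tumor 48, with a hypoxia score of 2.12, had the 2nd highest Angpt2 (6.92) and Esm1 (6.17) and the 3rd lowest Tek (6.18), with Cdh5 at 8.28, 31st from the top. In tumor 126, with a score of 1.69, Aplnr was lowest of all (6.32), Tek 2nd lowest (5.93) and Angpt2 3rd highest (6.65), with Cdh5 at 7.93. Tumor 100, with a score of 2.30, had Angpt2 5th from the top, and Tek 5th and Aplnr 6th from the bottom. The ligand Apln was less extreme, ranking 11th, 37th, 8th and 31st from the top in tumors 25, 48, 126 and 100. Of the tumors named here, only tumor 25 was near the bottom of Cdh5. Tumor 25 also had the lowest fibroblast and macrophage scores of all tumors (-2.41 and -2.10). The lowest adipocyte score (-1.09) was that of tumor 48, and the highest proliferation score (1.43) that of tumor 126. What part other cells had in their Tek and Aplnr levels was not tested. The difference of log2 Angpt2 and log2 Tek, read only for how it varied between tumors since the probes differ, followed the hypoxia score at r = 0.617 (rho = 0.421, permutation p = 1e-05 for both), with 0.528 without the 2 farthest tumors. That of Apln and Aplnr followed it at 0.703 (rho = 0.619, permutation p = 1e-05 for both), with 0.676 without them and 0.677 and 0.815 in the 2 runs. Both pairs were chosen after the values of their members had been seen. Since each ligand rose and each receptor fell with the score, a positive r of the differences was fixed beforehand. Its p-values therefore add no evidence to those of the single genes. For Angpt2 and Tek, the r of the difference was lower than that of Angpt2 alone. Angpt2 and Tek as such correlated at -0.246, and Apln and Aplnr at -0.157 (permutation p = 0.00809 and 0.0704).

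**Figure D5:**
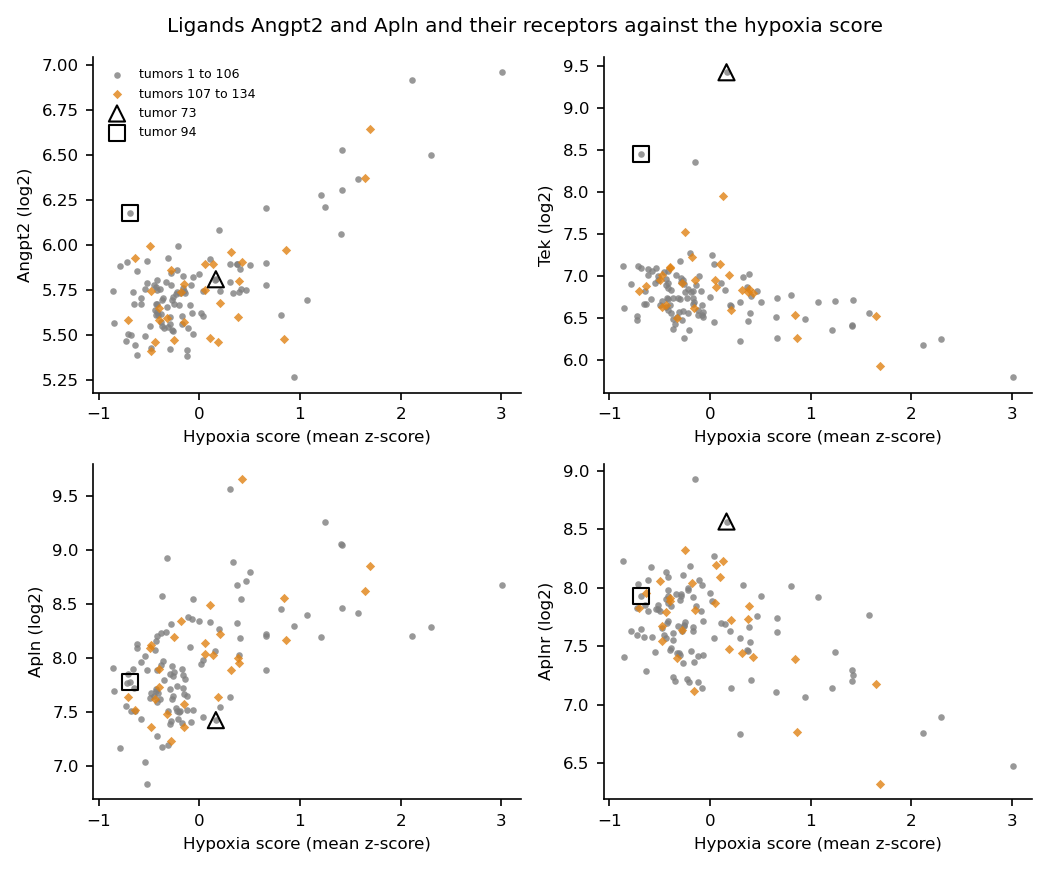
Log2 levels of the ligands Angpt2 and Apln (left) and of their receptors Tek and Aplnr (right) against the hypoxia score, 1 point per tumor, with the 2 runs of label numbers and tumors 73 and 94 marked. Both ligands rise and both receptors fall towards the highest scores, and tumor 73 lies high in both receptors at a hypoxia score of 0.165.

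Vegfa, the ligand itself, had a lowest, median and highest value of 7.55, 8.79 and 11.12 and followed the hypoxia score at r = 0.832 (limma adjusted p = 1.55e-32). Tumor 73, whose hypoxia score was 0.165, had a Vegfa level of 11.02, near the highest. With the level of Vegfa, 17 members were called positive, against 9.04% of all genes, and 1 negative, against 10.9%. The receptor Flt1 led with r = 0.625 (rho = 0.633, permutation p = 1e-05 for both, limma adjusted p = 2.95e-13), followed by Angpt2 (0.621), Esm1 (0.542), Flt4 (0.484) and Apln (0.472). Kdr, through which VEGF-A mainly signals, had 0.262 (limma adjusted p = 0.0155) and 0.144 without tumors 73 and 94. Aplnr was the negative one at -0.365 (limma adjusted p = 0.0003). Without tumor 73 the count fell to 8 positive and 2 negative members, and without tumors 73 and 94 to 7 and 2, whereas Flt1, Angpt2, Esm1, Flt4 and Apln had 0.611, 0.639, 0.557, 0.475 and 0.517 in that setting.

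Of 15 measured ligands of vessel receptors, 5 were called positive and 1 negative with the hypoxia score, against 12.9% and 12.7% of all genes. Adm, which encodes adrenomedullin, had r = 0.894, Pgf, the placental growth factor that binds VEGFR1, 0.734, Pdgfa 0.402 and Pdgfb, the ligand of the pericyte receptor, 0.382. Slit2, a guidance cue, was negative at -0.467. Angpt1, the stabilizing ligand of TIE2, had 0.0482 (limma adjusted p = 0.691). With Cdh5 a different set of ligands was highest, the chemokine Cxcl12 at 0.747, Vegfd at 0.602, Vegfb at 0.576 and Pdgfb at 0.572, with 9 called positive and 1 negative (Gdf2, -0.367), against 15.8% and 29.0% of all genes.

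Vessel genes also followed genes of fat and stroma. With the score of 9 adipocyte genes, 29 members were called positive and 0 negative, against 13.7% and 19.8% of all genes. Tek had r = 0.831 (rho = 0.686, permutation p = 1e-05 for both, limma adjusted p = 1.78e-33) and 0.738 without tumors 73 and 94, and Ptprb 0.820 and 0.724. Angpt2 (-0.153), Apln (-0.106) and Esm1 (-0.158) were not called. Without those 2 tumors, 24 members were positive and 1 negative. With the score of 11 fibroblast genes, 28 members were positive, against 11.1% of all genes, and Esm1 (-0.290) and Angpt2 (-0.259) negative, against 11.3%. Tek (0.693), Pecam1 (0.665) and Ptprb (0.657) led here, with 0.661, 0.631 and 0.628 without the 2 tumors farthest in that score. Among single pairs, Cd34 followed the fibroblast proteoglycan Dcn at 0.780 (rho = 0.779, permutation p = 1e-05 for both).

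The relation to macrophage genes was smaller and depended on tumor 73. With the score of 12 macrophage genes, 9 members were positive, against 16.8% of all genes, and 2 negative, Esm1 (-0.221) and Angpt2 (-0.201), against 21.9%, shares near or under the background. Cd34 (0.428), Plvap (0.340) and Lyve1 (0.310) were the highest. Without tumor 73, 17 were positive and 2 negative, with the share of all genes in that setting not given here. The calls of Esm1 and Angpt2 were lost on ranks (limma adjusted p = 0.0647 and 0.346), after a second quantile normalization (0.274 and 0.283) and with array quality as a covariate (0.171 and 0.207).

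Proliferation and luminal epithelial genes ran against the vessels, but largely through 2 tumors. With the proliferation score, 26 members were called negative, against 24.3% of all genes, and Apln positive (r = 0.252), against 22.0%. Robo4 had r = -0.637 and Vwf -0.634, with limma adjusted p of 3.25e-15 and 5.16e-15. Without tumors 73 and 94 these were -0.292 and -0.410, and 12 members were called negative and 2 positive, in a setting where 54.0% of all genes were called in either direction. Pecam1 moved from -0.371 to 0.0151 and Kdr from -0.607 to -0.214. With the luminal epithelial score, 26 members were negative and 0 positive, against 19.4% and 20.2% of all genes. The negative count was 14 without tumor 73, and 2 without tumors 73 and 94, when 2 were positive and 42.4% of all genes were called in either direction. Cdh5 had r = -0.417 with that score but rho = -0.00932 (permutation p = 0.0005 and 0.915) and r = 0.0102 without the 2 tumors.

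Between the 2 runs of label numbers, 2 members were called higher in the second and 0 lower, against 7.70% and 6.67% of all genes. Emcn, an endothelial sialomucin, had 7.70 ± 0.30 (SD, n = 28) in the second run and 7.44 ± 0.40 (n = 106) in the first, a difference of 0.26 on the log2 scale (limma adjusted p = 0.0183). Lyve1 had 6.50 ± 0.49 and 6.29 ± 0.29, a difference of 0.22 (adjusted p = 0.0263). The Lyve1 call was lost on ranks (limma adjusted p = 0.0821), without tumors 109 to 120 (0.0887) and with the other cell types as covariates (0.0589). The slope on Cdh5 differed between runs for 0 of 33 members (limma, adjusted p under 0.05, with 5 at an unadjusted p under 0.05), and for 0.0150% of all genes. Since a backcross gives 2 genotypes at each autosomal locus, each gene was also tried for 2 separate levels. A mixture of 2 normal distributions in place of 1, with a gain in the Bayesian information criterion over 10 and at least a 0.25 share in the smaller, was called for 0 of the 30 members above the floor and for 0.320% of all genes above it.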

How the data were processed

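The authors extracted RNA from 1 tumor per animal, hybridised it to Affymetrix Mouse Gene 1.0 ST arrays and deposited log2 values normalized by RMA, which makes all arrays share nearly 1 distribution, so that a change in total RNA cannot be seen. Array medians lay between 6.30 and 6.54. Of 35556 probe sets, 21789 carried 1 gene symbol, 1621 several and 12146 none. Those with 1 symbol were kept, and for the 999 genes with several the probe set of highest mean was taken, for 19938 genes, of which 19919 were found in the RefSeq table.

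Each gene was regressed on a gene's level or a score across the 134 tumors with limma 3.58.1 (R 4.3.3, lmFit and eBayes), with Benjamini-Hochberg adjustment over all genes tested, and r is the signed correlation from that fit. Genes inside a score were not tested against it. Pearson's r and Spearman's rho had 2-sided p-values from 100000 permutations (Python 3.11.15, scipy 1.17.1). Scripts were tested on simulated data. The labels number animals and give no replicates, litters or batches, so the p-values measure the spread between tumors. The 34 genes and all lists were chosen with earlier results of these data known. Named were all 34 genes, the measured genes of the other vessel and ligand lists, the genes most like Cdh5 (10) and Rgs5, Lyve1 and Prox1 (5 each), and the tumors of extreme values. Epcam, Adipoq and Dcn were named after their values were seen, as markers of other cells. Alternatives were the mean of probe sets, ranks as normal scores, another quantile normalization, leaving out dim genes, array quality (relative log expression) as a covariate, each run of label numbers alone, tumors left out, and other cell types as covariates.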

Additional observations from a re-analysis of the deposited data

How the results depend on the processing

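Leaving out the mean of probe sets, which cannot alter genes of 1 probe set, counts of members called kept within 1.5 times their value in 130 of 172 comparisons with an alternative. Single r values kept direction and side of the threshold in 1421 of 1571. With fibroblast, adipocyte and macrophage scores as covariates, r turned sign for Cdh5 with Aplnr (-0.0574) and for the hypoxia score with Cd34 (0.357), Egfl7 (0.00342), Kdr (0.352), Pecam1 (0.470), Ptprb (0.00485), Robo4 (0.266) and Sox18 (0.271). In that setting 1 member was called with Lyve1, 8 with Prox1, 14 with proliferation, 14 with luminal epithelium and 12 with hypoxia beside Cdh5 (7 positive, 5 negative).

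In tumors 107 to 134 alone, where 28 arrays limit what can pass, 17 members were called with Cdh5, 0 with Rgs5 (13 at an unadjusted p under 0.05, limma), 9 with Lyve1, 0 with Prox1 (1 unadjusted), 4 with Vegfa, 2 with proliferation, 3 with hypoxia, 6 with hypoxia beside Cdh5, 12 with adipocyte, 7 with macrophage and 3 with luminal genes. In tumors 1 to 106 alone, 9 were called with hypoxia and 4 with macrophage genes. On ranks as normal scores the counts were 2 for Prox1, 17 for proliferation, 12 for hypoxia beside Cdh5 (4 positive, 8 negative), 18 for macrophage and 2 for luminal genes. A second quantile normalization gave 9 for hypoxia. Without tumor 73 they were 10 for Vegfa, 14 for luminal and 19 for macrophage genes, and without tumors 109 to 120 6 for macrophage genes. Without the 2 tumors farthest in the score, 14 were called with proliferation and 4 with luminal genes. In settings added after the data had been seen, without tumors 73 and 94 and also without 82, the counts were 2 for Prox1, 9 for Vegfa, 14 for proliferation, 20 for macrophage genes, 4 for the difference between runs and, for luminal genes, 4 and 5. The cause was not tested in any of these. For most alternatives the share of all genes called is not given, so a changed count need not concern the members alone.

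Esm1, Prox1, Flt4 and Sox17 have means under the detection floor, where signal over background limits what their values can show, and 1 probe set stands for each gene. The arrays do not separate cells, and the vessel genes were not measured in sorted cells here.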

Other observations

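Of the 33 measured genes of the wider endothelial list, limma did not call 10 with Cdh5. Among these, the arterial connexin Gja5 and the Notch target Hey1 had r = 0.00591 and -0.0190, the adhesion molecules of inflamed endothelium Sele and Icam1 -0.0198 and 0.0983, the vasoconstrictor gene Edn1 -0.0333 and the BMP9 receptor Acvrl1 -0.0228. Gdf2, which encodes BMP9, was called negative at -0.367 (limma adjusted p = 0.000119). These genes were picked after their values had been seen, and no difference between kinds of vessel was tested.

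Of the 16 other genes of smooth muscle and pericytes, 3 were called positive with the hypoxia score and 4 negative, shares near those of all genes (12.9% and 12.7%). The potassium channel gene Kcnj8, its partner subunit Abcc9 and Rgs4 were positive at 0.309, 0.304 and 0.303, as was Rgs5 among the 34, whereas Notch3, its target Heyl, Foxs1 and Anpep were negative at -0.302, -0.270, -0.264 and -0.331. Of the 33 other blood endothelial genes, 0 were positive and 3 negative with that score, Clec14a (-0.319), Icam2 (-0.257) and Acvrl1 (-0.229).

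Vwf, which platelets also hold, followed a platelet score at r = 0.283 (rho = 0.417, permutation p = 0.00109 and 1e-05), with r = 0.176 in the first run and 0.717 in the second.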
